A study of Mus musculus with 3 samples.

Results

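The endoplasmic reticulum secretion machinery was followed through early development of the dental papilla as a list of 40 genes. The genes fall into 4 steps of the pathway: translocation of new proteins into the reticulum, folding, export with retrieval, and regulators of the machinery. A gene was taken through every probe set whose only symbol in the platform annotation was that gene's. In this way 38 of the 40 genes, among 18193 genes of the array with such a probe set, were represented by 91 of 45101 probe sets. Sec61g, the small subunit of the translocation channel, and Fkbp10, a collagen-binding prolyl isomerase, had none and are not analysed here. Of the 38 genes, 14 belong to translocation, 8 to folding, 12 to export and retrieval and 4 to the regulators.

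The samples were dental papillae, the mesenchyme inside the tooth germ from which odontoblasts and pulp arise, of ICR mice (an outbred stock) at embryonic day 16 (E16), embryonic day 18 (E18) and postnatal day 3 (P3). Papillae were separated with enzyme from first molars of the lower jaw, RNA of more than 20 papillae was pooled per stage, and 1 array per stage was hybridised with biotin-labelled cRNA from 2-cycle labelling. No treatment or mutation is given in the labels. With 3 arrays and no replicates there is no standard error, test or p-value, and precision is limited by the number of arrays. The stages were compared to see how genes of this pathway differed as papilla cells turn into matrix-secreting odontoblasts.

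Secreted proteins enter the endoplasmic reticulum through the Sec61 channel while they are being made, lose their signal peptide, and are folded with the help of chaperones and disulfide isomerases. COPII-coated vesicles then carry them towards the Golgi, while COPI-coated vesicles and KDEL receptors bring escaped residents back. Odontoblasts, which release collagen and dentin proteins in bulk, are known for an extensive rough endoplasmic reticulum. Xbp1, Atf4 and the membrane-bound factors Creb3l1 and Creb3l2 are transcription factors known to act on genes of this machinery, several of which carry short recognition sequences for them close to their start.

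The promoters of the folding genes and of the export genes held different ones of these short sequences, and the windows around the matches are printed here because the folding step also had the lowest array values at P3 against E18. RefSeq promoters (build GRCm38.p6, 250 bases before to 50 bases after the start of the gene) were found for 32 of the 40 genes. The ER stress element was searched on both strands as CCAAT, 9 bases of any kind and CCACG. It was found in 5 of the 8 folding genes with a promoter (Pdia6, Hsp90b1, Canx, Hspa5 and Calr), in none of the 24 others of the list, and in 37 of all 27025 genes with a promoter (0.137%). Several genes of this machinery are known to carry such sequences, so these matches were foreseeable and are no independent result. In the lines below, capitals mark the match, which reads in the opposite direction in Calr and in the second match of Hsp90b1, and each sequence runs 5′ to 3′ on the strand of its gene.

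Pdia6 chr12:17266431-17266569 (plus strand): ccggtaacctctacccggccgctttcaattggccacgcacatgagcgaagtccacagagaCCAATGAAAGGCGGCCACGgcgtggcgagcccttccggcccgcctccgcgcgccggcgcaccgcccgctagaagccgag
Hsp90b1 chr10:86705473-86705694 (minus strand): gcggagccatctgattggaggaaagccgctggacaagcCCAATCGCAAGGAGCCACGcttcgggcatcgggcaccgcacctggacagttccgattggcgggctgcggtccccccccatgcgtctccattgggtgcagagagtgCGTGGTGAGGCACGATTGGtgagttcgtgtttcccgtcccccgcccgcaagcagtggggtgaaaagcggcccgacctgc
Canx chr11:50325740-50325878 (minus strand): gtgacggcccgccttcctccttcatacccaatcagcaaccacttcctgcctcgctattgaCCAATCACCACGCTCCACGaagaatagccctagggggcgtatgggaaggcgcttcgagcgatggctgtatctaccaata
Hspa5 chr2:34771965-34772089 (plus strand): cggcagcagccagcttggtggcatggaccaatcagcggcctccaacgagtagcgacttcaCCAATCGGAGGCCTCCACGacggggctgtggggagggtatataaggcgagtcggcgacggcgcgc
Calr chr8:84847015-84847153 (minus strand): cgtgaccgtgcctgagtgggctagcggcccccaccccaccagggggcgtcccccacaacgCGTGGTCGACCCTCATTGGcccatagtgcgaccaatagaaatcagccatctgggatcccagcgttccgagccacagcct

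The UPR element, TGACGTGG, was searched on both strands in the same promoters. It was found in 4 of the 10 export genes with a promoter (Copb1, Kdelr3, Sec24d and Sec23a), in none of the 22 others of the list, and in 193 of all 27025 genes (0.714%). As with the ER stress element, these matches are no independent result. In Sec23a the match lay after the start and is not printed. Capitals mark the match, which reads in the opposite direction in Copb1 and Kdelr3. The last 5 letters of the ER stress element and of the UPR element are the same run read on opposite strands, and no promoter of the list held both.

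Copb1 chr7:114254681-114254768 (minus strand): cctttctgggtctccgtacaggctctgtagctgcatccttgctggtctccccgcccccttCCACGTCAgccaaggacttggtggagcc
Kdelr3 chr15:79516318-79516407 (plus strand): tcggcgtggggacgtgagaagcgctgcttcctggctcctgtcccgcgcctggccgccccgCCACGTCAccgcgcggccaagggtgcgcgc
Sec24d chr3:123267410-123267495 (plus strand): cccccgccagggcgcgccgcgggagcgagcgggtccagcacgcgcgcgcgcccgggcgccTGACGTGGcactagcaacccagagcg

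Of the other sequences searched, the shorter run GACGTG, which is contained in the UPR element, was present in 13 of the 32 promoters and in 7.15% of all promoters. The ER stress element II (ATTGG, 1 base of any kind, CCACG) was present in none of the 32 and in 0.0444% of all, and TGATGCAAT, a composite sequence known for Atf4, in none of the 32 and in 0.222% of all. A match describes the letters in the window and not a site bound by a factor, and the absence of one says only that those letters are not there.

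Array values are given as deposited, as ratios in which the middle one of the 3 stages of a probe set is 1, so ratios of different genes do not compare their levels. A gene was represented by the probe set with the highest mean signal recovered from the ratios. It was counted in a comparison when at least 1 of its 2 arrays reached a floor of 82, the median signal, and lower signals were set to that floor. Of the 38 genes only Creb3l1 was below the floor on any array. Recovered signals of bright probe sets are uncertain. This holds for the representative probe sets of all of the 38 genes but Creb3l1 and Creb3l2. Ratios between stages of 1 probe set are left untouched. The uncertainty bears on which probe set represents a gene, on which genes count as bright and on every sum of signals over genes. It also bears on every value after quantile normalization, which was run on the recovered signals.

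The following facts about the arrays touch all results. The median of all measured genes was below 0 in both comparisons with the P3 array, at -0.17 on the log2 scale for P3 minus E16 and -0.15 for P3 minus E18, against -0.04 for E18 minus E16. The shift was larger for bright genes: among the 2119 genes with a mean signal of at least 1000, which hold 24 of the 38 members, the medians were -0.36, -0.53 and 0.14. Relative to the E16 array, the 3′ to 5′ signal ratio of actin, which reflects how intact and how fully copied the RNA was, stood at 3.87 for E18 and 2.46 for P3, and that of Gapdh at 1.42 and 0.355. Their part in the results was not tested.

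Taken as a whole list, most counts of the machinery lay near the shares of all genes, and no test of a difference was possible. The furthest below those shares were 2 counts at 1.5-fold: lower genes at E18 against E16 and higher genes at P3 against E18. At P3 against E16, 3 of 38 members were at least 2-fold higher, beside 6.57% of 12191 genes measured, and 5 were at least 2-fold lower, beside 15.6%. At a 1.5-fold threshold 5 were higher, beside 13.5%, and 11 were lower, beside 30%. At E18 against E16, 3 of 37 were at least 2-fold higher, beside 8.1% of 12030 genes, and 2 were lower, beside 8.13%; at 1.5-fold the counts were 8 higher, beside 17.7%, and 3 lower, beside 19.9%. At P3 against E18 none of 38 was at least 2-fold higher, beside 4.07% of 12117 genes, and none at least 1.5-fold higher, beside 11.2%. In that comparison 6 were at least 2-fold lower, a share between the 11.8% of all genes and the 23.2% of bright genes, and 11 were at least 1.5-fold lower, beside 25.7%. Quantile normalization, which gives the recovered signals of the arrays the same distribution, shifted these splits. Over all genes it gave 1217 at least 2-fold higher and 1286 lower at P3 against E16, beside 801 and 1902 as deposited, and 786 and 880 at P3 against E18, beside 493 and 1426. Of the members it put 5 higher and 3 lower at P3 against E16, and none higher and 2 lower at P3 against E18. At 1.5-fold it put 11 members higher and 6 lower at P3 against E16, and 7 higher and 6 lower at P3 against E18. As deposited, the median log2 difference of the members was -0.01 for P3 minus E16, 0.24 for E18 minus E16 and -0.31 for P3 minus E18.

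**Figure D1:**
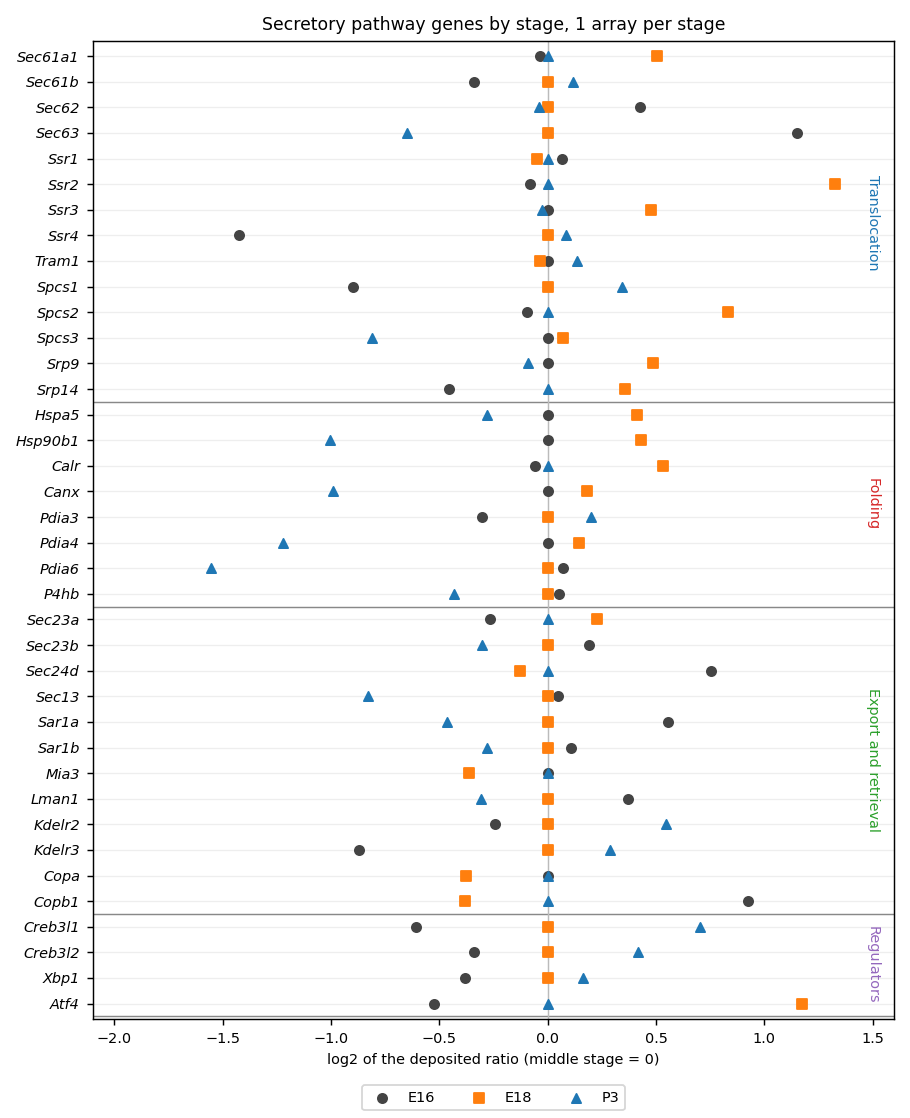
Deposited ratio of each of the 38 genes at E16, E18 and P3 on the log2 scale (horizontal axis, the middle stage of each gene at 0), 1 array per stage and 1 representative probe set per gene, ordered by step. P3 is the lowest stage for 6 of the 8 folding genes, and E16 is the highest for 9 of the 12 export genes.

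The steps differed from each other in their medians and in the stage at which their genes were highest. Among genes that reached the floor at every stage, the highest stage as deposited was E18 for 7 of 14 translocation genes and 5 of 8 folding genes. It was E16 for 9 of 12 export genes. Over all 9866 such genes it was E16 for 42.9%, E18 for 34.9% and P3 for 22.2%. These counts depended on normalization. After quantile normalization P3 lay above E18 by 0.01 in Sec61a1, Ssr3 and Calr and by 0.07 in Srp14. Spcs3 and Canx were then highest at E16, with E18 minus E16 at -0.14 and -0.01. Mia3 and Copa were then highest at P3, with P3 minus E16 at 0.38 and 0.33. For P3 minus E18 the median was -0.43 in translocation, -0.93 in folding, -0.05 in export and 0.13 in the regulators. For E18 minus E16 the medians were 0.48, 0.24, -0.28 and 0.38 in the same order, and for P3 minus E16 they were 0.06, -0.74, -0.44 and 0.54. After quantile normalization the P3 minus E18 medians became 0.04 in translocation, a change of sign, -0.44 in folding, 0.40 in export, also a change of sign, and 0.33 in the regulators, beside 0.03 for all genes. Among the members, folding was the lowest of the 4 steps in that comparison with and without normalization. The other genes of the pathway, given further below, did not repeat this order as deposited. The regulators' median depended on the choice of probe set: for P3 minus E18 it was -0.11 with the median over the probe sets of each gene and -0.15 without probe sets of shared transcripts, and for P3 minus E16 it was 0.18 and 0.13.

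**Figure D2:**
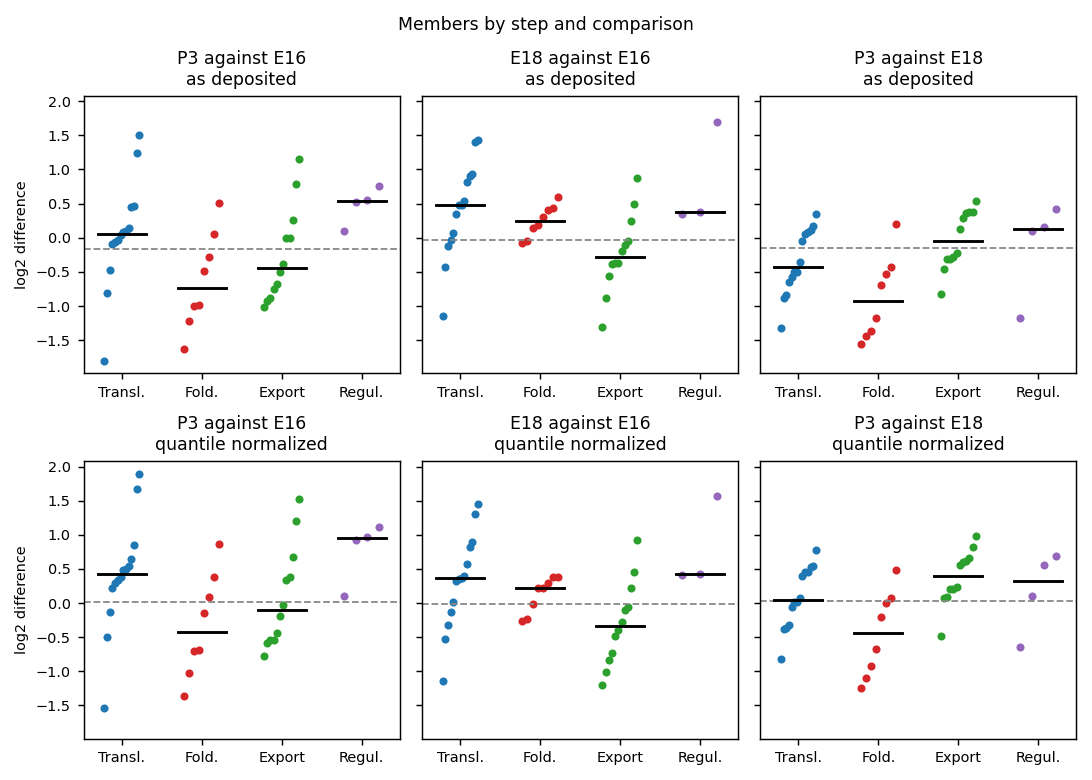
Log2 differences of the members (points, 1 per gene) by step for P3 minus E16, E18 minus E16 and P3 minus E18, as deposited in the upper row and after quantile normalization in the lower row. Black bars are the medians of a step and dashed lines the median of all genes measured; for P3 minus E18 the folding median is -0.93 as deposited and -0.44 after normalization, the lowest of the 4 steps in both rows.

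In the translocation step, 7 of 14 members were highest at E18 as deposited. Sec61a1, the pore-forming subunit of the channel, had ratios of 0.975, 1.42 and 1 at E16, E18 and P3. It was 1.45-fold higher at E18 than at E16 and 1.42-fold lower at P3 than at E18. Its 4 other measured probe sets did not share this pattern: for E18 minus E16 they lay between -1.16 and -0.04 on the log2 scale, against 0.54 for the representative one. Sec61b, a small subunit of the channel with 1 probe set, had 0.789, 1 and 1.08 and so differed little after E16, being 1.27-fold higher at E18 and 1.37-fold higher at P3 than at E16.

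Sec62 and Sec63, membrane partners of the channel that help proteins entering after their synthesis, were highest at E16. Sec63 had ratios of 2.22, 1 and 0.637, which put it 3.49-fold lower at P3 and 2.22-fold lower at E18 than at E16. The P3 value lay below both earlier stages, but 2 other probe sets of Sec63 gave log2 differences of -0.25 and 0.38 for P3 minus E16, against -1.80. Sec62 had 1.34, 1 and 0.972. Its 4 measured probe sets spanned -1.27 to 1.87 for P3 minus E16, the widest range among the members, so no direction can be given for it.

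The translocon-associated protein complex, which sits beside the channel and takes part in the entry of some proteins, gave differing patterns on its representative probe sets. With 1 array per stage and probe sets that disagree, whether its subunits varied together cannot be told. Ssr2 had ratios of 0.946, 2.51 and 1, standing out at E18 alone: it was 2.65-fold higher at E18 than at E16 and 2.51-fold lower at P3 than at E18, from 1 probe set. Ssr4 had 0.372, 1 and 1.06 and stood out at E16 alone, with a value 2.85-fold higher at P3 and 2.69-fold higher at E18 than at E16. Its 2 other probe sets ran the other way, at -0.87 and -0.28 for P3 minus E16, and its direction is therefore unsettled. Ssr1 stayed between 0.967 and 1.05 on its representative probe set, while its 4 measured probe sets spanned -1.30 to 0.32 for P3 minus E16. Ssr3 had 1, 1.39 and 0.982. Tram1, a membrane protein that helps nascent chains leave the channel, had 1, 0.974 and 1.10 and was within 1.5-fold on both of its probe sets.

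The signal peptidase subunits gave 3 different patterns on their representative probe sets. Spcs1 had ratios of 0.536, 1 and 1.27 and was 2.37-fold higher at P3 than at E16, although 2 other probe sets gave log2 differences of -0.97 and 0.21. Spcs2 had 0.936, 1.78 and 1, and was 1.90-fold higher at E18 than at E16. Both probe sets of Spcs2 placed E18 highest, the other one at 1.16 against 0.450 at E16 and 1 at P3. Spcs3 had 1, 1.05 and 0.570 and was 1.84-fold lower at P3 than at E18, so that its P3 value alone was low.

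The list holds Srp9 and Srp14 of the signal recognition particle, which brings ribosomes to the reticulum, and both were highest at E18. Srp9 had ratios of 1, 1.40 and 0.940, and its other probe set 0.753, 1.56 and 1. Srp14 had 0.728, 1.28 and 1 and was 1.76-fold higher at E18 than at E16. All 4 probe sets of Srp14 were higher at E18 than at E16, with log2 differences of 0.59 to 1.12, and 2 of the 4 were higher still at P3. For E18 minus E16, 19 of 36 measured probe sets of the translocation step were above 0 and 17 below, beside 52.8% below over all probe sets, and with the median over the probe sets of each gene the step's median was 0.12, against 0.48 with the representative ones.

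In the folding step the P3 array was low. Of 8 members 7 were lower at P3 than at E18, beside 7224 of 12117 genes measured. Of these 4 were at least 2-fold lower, beside 11.8% of all genes and 23.2% of bright genes. In that comparison 16 of the 17 measured probe sets of the step were below 0 (94.1%), beside 59.6% of all probe sets. After quantile normalization 5 of 8 members and 11 of 17 probe sets (64.7%, beside 49.7% of all) were lower, and 2 of the 4 passed 2-fold. Over all 12116 genes 5825 were then lower, 880 of them at least 2-fold. With the median over the probe sets of each gene all 8 members were lower, 2 of them at least 2-fold, with a median of -0.82. The brightness of these genes moves with the result: the median of bright genes for P3 minus E18 was -0.53, against -0.93 for the folding step, and its part was not tested. Against E16, 6 of 8 members were lower at P3, beside 7320 of 12191 genes, and 3 at least 2-fold, beside 15.6%. At E18 the differences from E16 lay between -0.07 and 0.59 and none passed 2-fold, beside 8.1% of all genes higher and 8.13% lower.

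Pdia6, a disulfide isomerase, had ratios of 1.05, 1 and 0.341, the lowest P3 ratio among the 38 genes. At P3 it was 3.08-fold lower than at E16 and 2.93-fold lower than at E18, with the embryonic stages alike. Its other probe set had 1.21, 1 and 0.739, also lowest at P3 with a smaller difference. Pdia4, another disulfide isomerase, had 1, 1.10 and 0.429, which is 2.58-fold lower at P3 than at E18. In both genes the difference for P3 minus E18 stayed past 2-fold after quantile normalization, at -1.09 for Pdia6 and -1.25 for Pdia4.

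Hsp90b1 (GRP94), the Hsp90 chaperone of the reticulum, had ratios of 1, 1.35 and 0.498 and was 2.70-fold lower at P3 than at E18. A second probe set of nearly the same recovered brightness had 1, 1.23 and 0.896, so the order of the stages was the same while the size was 1.37-fold. Hspa5 (BiP), the central Hsp70 chaperone and sensor of unfolded proteins, had 1, 1.33 and 0.822 and was 1.62-fold lower at P3 than at E18. All 3 probe sets of Hspa5 were lowest at P3, with P3 minus E18 between -1.11 and -0.63. After quantile normalization its representative difference was -0.20 for P3 minus E18, and for P3 minus E16 it changed sign, from -0.28 as deposited to 0.09.

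Calnexin (Canx) and calreticulin (Calr), the lectin chaperones of glycoproteins, differed in size. Canx had ratios of 1, 1.13 and 0.503 and was 2.25-fold lower at P3 than at E18. Of its 2 other probe sets, 1 gave the same log2 difference of -1.17 and the other -0.10. Calr had 0.961, 1.45 and 1, with E18 alone high, and was 1.45-fold lower at P3 than at E18; after quantile normalization that difference was 0.01 on the log2 scale. P4hb, the disulfide isomerase that is also a subunit of collagen prolyl hydroxylase, had 1.04, 1 and 0.742, and its P3 minus E18 difference changed sign from -0.43 to 0.08 with normalization.

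Pdia3 (ERp57), the disulfide isomerase that works with the lectin chaperones, was the exception of the step. Its ratios were 0.809, 1 and 1.15, and it was 1.42-fold higher at P3 than at E16. Its other probe set ran the other way, with 1.44, 1 and 0.857, so that Pdia3 showed no settled direction.

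**Figure D3:**
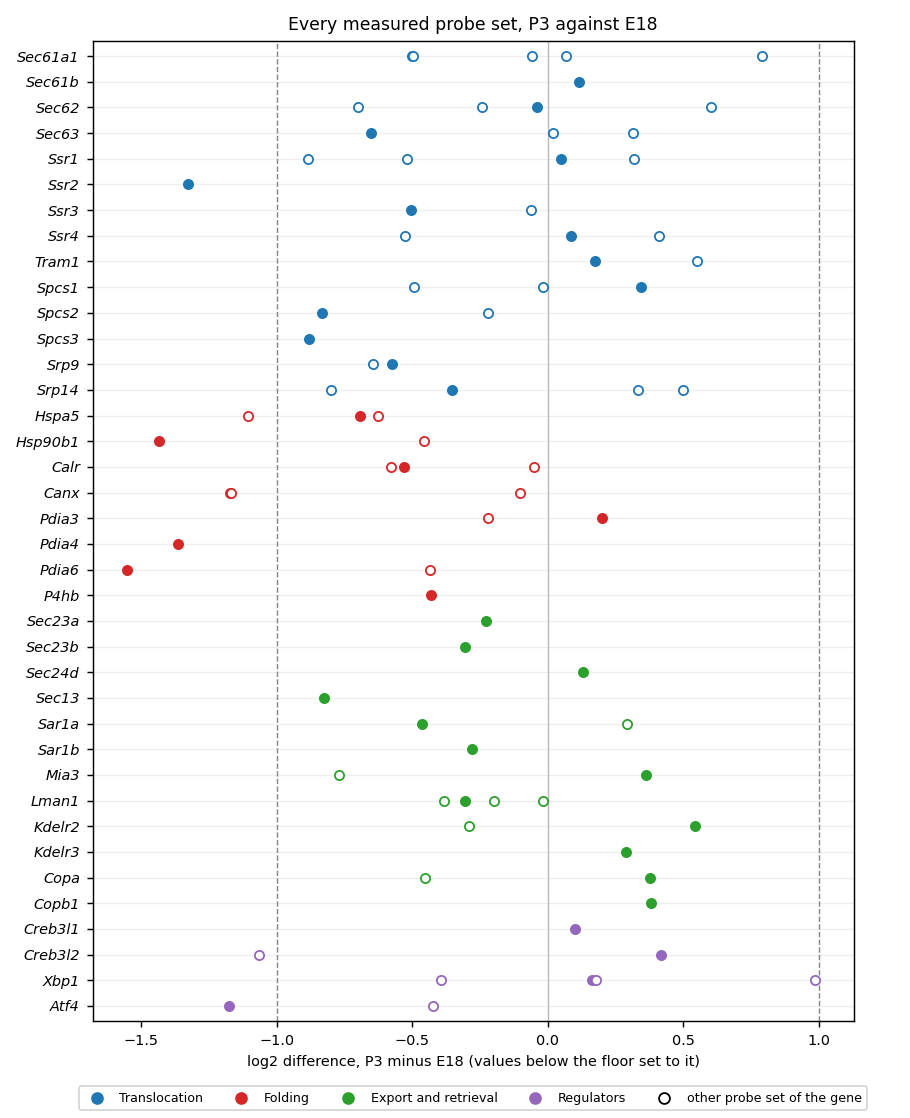
Log2 difference P3 minus E18 (horizontal axis) of each measured probe set of the members, by gene; filled points are the representative probe sets, open points the others, colours the 4 steps, and dashed lines mark 2-fold. All probe sets of the folding genes (red) but the representative one of Pdia3 lie below 0, whereas 14 of the 25 members with 2 or more measured probe sets have points on both sides.

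The 5 folding genes with an ER stress element (sequences above) had P3 minus E18 differences of -1.55 (Pdia6), -1.44 (Hsp90b1), -1.17 (Canx), -0.69 (Hspa5) and -0.53 (Calr). The 3 folding genes without one in the window had -1.36 (Pdia4), -0.43 (P4hb) and 0.20 (Pdia3), so the values of genes with and without the element overlapped. Outside the 40 genes, the element was present in 5 of 118 other genes of the pathway with a promoter and a probe set, all of them in the folding step. These had -1.46 (Derl3), -1.18 (Creld2), -0.68 (Ero1b), -0.07 (Dnajc3) and 0.55 (Syvn1). The 4 export genes with a UPR element had 0.38 (Copb1), 0.29 (Kdelr3), 0.13 (Sec24d) and -0.23 (Sec23a), and the 5 other genes of the pathway with one lay between -0.39 (Arf1) and 0.46 (Txndc5). The promoters were read after the array values were known, and these numbers describe the genes and no action of a factor.

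**Figure D4:**
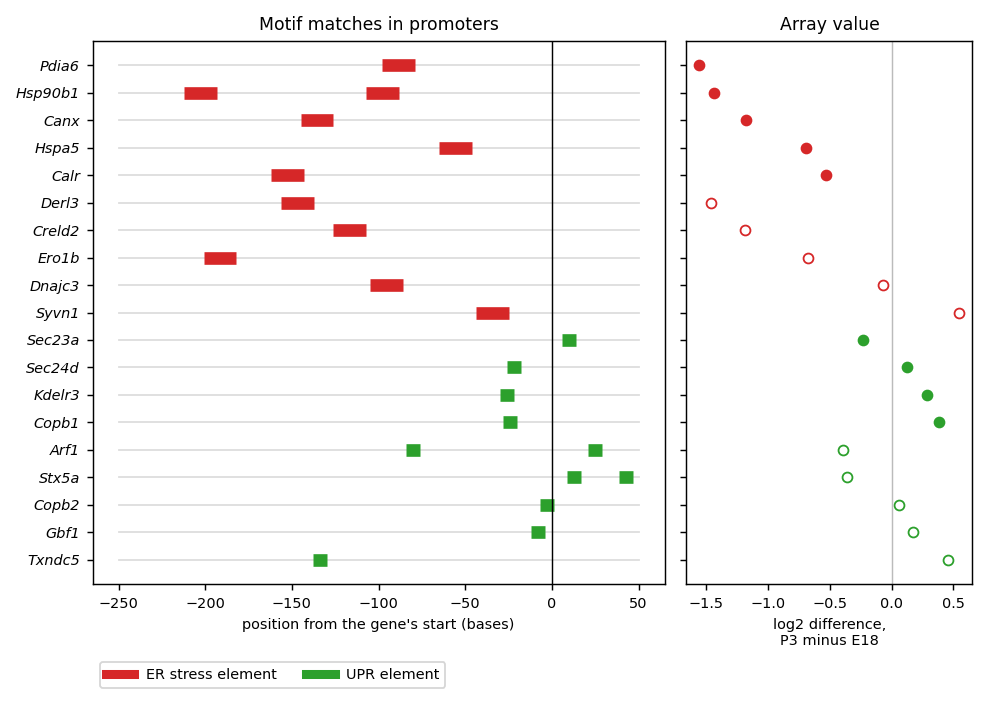
Positions of the ER stress element (red) and the UPR element (green) relative to the start of each gene in bases (left) beside the log2 difference P3 minus E18 of the same gene (right); filled points are members of the list and open points other genes of the pathway. The members with an ER stress element lie between -1.55 and -0.53, and those with a UPR element between -0.23 and 0.38.

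Among the export and retrieval genes, the parts of the COPII coat and its cargo adaptors were mostly highest at E16. Sar1a, a small GTPase that starts the coat, had ratios of 1.47, 1 and 0.725 and was 2.03-fold below its E16 value at P3; a dimmer second probe set had 0.951, 1 and 1.23. Its paralogue Sar1b had 1.08, 1 and 0.824, in the same order and with smaller steps. Sec24d, a cargo-binding coat subunit known from zebrafish for its need in collagen export, had 1.69, 0.915 and 1, with E16 alone high, and was 1.84-fold lower at E18 than at E16.

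The inner coat paralogues Sec23a and Sec23b differed in order. Sec23a, mutated in a human disorder of skull ossification, had ratios of 0.833, 1.17 and 1, lowest at E16, while Sec23b had 1.14, 1 and 0.810, lowest at P3. Each was within 1.5-fold in all 3 comparisons and each has 1 probe set. Sec13, an outer coat subunit that is also part of the nuclear pore, had 1.03, 1 and 0.564, with P3 alone low, and was 1.77-fold lower at P3 than at E18. Lman1 (ERGIC-53), a lectin that carries glycoproteins out of the reticulum, had 1.29, 1 and 0.808. Of its 3 other measured probe sets 2 were higher at P3 than at E16, by 0.75 and 0.81 on the log2 scale, against -0.68 for the representative one.

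Mia3 (TANGO1), the receptor that loads bulky collagens into COPII carriers, had ratios of 1, 0.777 and 1, with P3 and E16 alike, and was 1.29-fold lower at E18 than at E16. Its other measured probe set had 1.12, 1 and 0.587. The COPI coat subunits Copa and Copb1 were likewise lowest at E18. Copb1 had 1.90, 0.769 and 1 and was 2.47-fold lower at E18 than at E16. Copa had 1, 0.770 and 1, and its other probe set 1, 1.09 and 0.799, which places E18 highest.

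The KDEL receptors, which return escaped chaperones to the reticulum, were as deposited the 2 export genes highest at P3 on their representative probe sets. Kdelr3 had ratios of 0.547, 1 and 1.22 and was 2.23-fold higher at P3 and 1.83-fold higher at E18 than at E16, from 1 probe set. After quantile normalization its P3 minus E16 difference was 1.53, against 1.16 as deposited. Kdelr2 had 0.845, 1 and 1.46 and was 1.73-fold higher at P3 than at E16; a second probe set had 0.933, 1.22 and 1 and placed E18 highest. Most folding genes whose products end in KDEL or a like signal were lower at P3 than at E16, as were 7320 of 12191 genes measured. The folding genes were Pdia6 (3.08-fold), Pdia4 (2.33-fold), Hsp90b1 (2.01-fold), P4hb (1.40-fold) and Hspa5 (1.22-fold). Pdia3 and Calr had log2 differences of 0.51 and 0.06, in the direction of the receptors, but the other probe set of Pdia3 gave -0.75. After quantile normalization the P3 minus E16 differences were -1.36 (Pdia6), -1.03 (Pdia4), -0.70 (Hsp90b1), -0.15 (P4hb), 0.09 (Hspa5), 0.86 (Pdia3) and 0.38 (Calr).

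Of the 4 regulators, 3 were highest at P3 and Atf4 at E18. Xbp1, the factor that enlarges the secretory machinery after its mRNA is spliced in the unfolded protein response, had ratios of 0.767, 1 and 1.12 and was 1.46-fold higher at P3 than at E16. All 4 of its probe sets were higher at P3 than at E16, with log2 differences of 0.16, 0.55, 1.08 and 1.68. The array values give no view of splicing. Creb3l2, a membrane-bound factor known in cartilage for raising COPII genes, had 0.790, 1 and 1.33, while its dimmer second probe set had 1, 1.79 and 0.856 and placed P3 lowest.

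Creb3l1 (OASIS), a membrane-bound factor needed in mouse osteoblasts for collagen secretion, was the one member near the limit of measurement. Its recovered signals were 35.4, 53.9 and 87.8 at E16, E18 and P3, only the P3 array passed the floor, so P3 exceeded either embryonic stage by at least 1.07-fold. Atf4, the factor translated when the initiation factor eIF2 is phosphorylated and known in osteoblasts for collagen synthesis, had ratios of 0.694, 2.26 and 1. It was 3.25-fold higher at E18 than at E16 and 2.26-fold lower at P3 than at E18, so E18 alone was high. A dimmer measured probe set had 1.10, 1 and 0.746, with no such peak. Atf4 had the largest E18 minus E16 difference among the representative probe sets of the members.

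How far probe sets of a gene disagreed is the only view of measurement error in these arrays. In each of the 3 comparisons, 25 members had at least 2 measured probe sets, and in 14 of them the probe sets differed in sign. The range between the probe sets of a member had a median of 1.09 on the log2 scale for P3 minus E16, 0.60 for E18 minus E16 and 0.84 for P3 minus E18. For most members the difference between stages was smaller than that spread in each comparison. Members whose probe sets shared the direction in all measured cases included Hspa5, Hsp90b1 and Pdia6 for P3 minus E18, Xbp1 for P3 minus E16, and Spcs2, Srp9 and Srp14 for E18 minus E16.

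Other genes of the pathway, taken from a list of 150 of which 140 had a probe set, were close to all genes by their medians. For P3 minus E16 the median of 133 measured genes was -0.19, with 9 at least 2-fold higher and 14 lower. For E18 minus E16 the median of 129 was 0.03, with 13 higher and 4 lower, and for P3 minus E18 the median of 133 was -0.24, with 2 higher and 13 lower. These counts stand beside the shares of all genes given for the members. By step, the P3 minus E18 medians were -0.44 in translocation, -0.32 in folding, -0.24 in export and 0.21 in the regulators. Folding was thus not the lowest step among these genes. For P3 minus E16 their folding median was -0.17, the same as that of all genes.

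Among the other folding genes, those with the largest differences were highest at E18. Manf, a small stress-induced protein that binds BiP, had ratios of 0.604, 2.79 and 1 and was 4.62-fold higher at E18 than at E16. Fkbp2, a prolyl isomerase of the reticulum, had 0.670, 2.46 and 1, and Pdia5, a disulfide isomerase, 0.696, 2.02 and 1. Derl3, which takes part in removing misfolded proteins, had 1, 2.07 and 0.751. Each of these 4 genes has 1 measured probe set, and in each the E18 value was at least 2-fold above both other stages. Dnajc3 and Dnajb11, co-chaperones of BiP, differed from each other, with 0.377, 1.05 and 1 for Dnajc3 and 1.45, 1 and 0.543 for Dnajb11. The 2 other probe sets of Dnajc3 gave -0.01 and 0.39 for P3 minus E16, against 1.41.

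Among the other translocation genes, Rpn2, a subunit of the oligosaccharyltransferase that attaches N-glycans, had ratios of 1.55, 1 and 0.350 and was 4.43-fold lower at P3 than at E16, from 1 probe set. Sec61a2, the paralogue of Sec61a1, had 3.47, 0.968 and 1 with E16 alone high, where a second probe set gave a difference of -0.12 for P3 minus E16. The receptor subunit Srprb had 2.50, 0.928 and 1, and its 2 other probe sets gave -0.26 and 0.36. Of the further subunits of the signal recognition particle, Srp68 had 1, 1.42 and 0.533 and Srp19 0.544, 1.41 and 1, both highest at E18. Srp72, named here after its values were seen, had 1, 0.991 and 1.13 and was highest at P3, while its other probe set was lower at P3 than at E18 by 1.07 on the log2 scale. Sec11a, a catalytic signal peptidase subunit, had 1.08, 1 and 0.506 and resembled Spcs3 in its low P3 value.

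Among the other export genes, Preb (mammalian Sec12), which loads Sar1 with GTP, had ratios of 1, 2.07 and 0.348 and was 5.96-fold lower at P3 than at E18. Its 2 other probe sets were also lower at P3 than at E18, with differences of -1.20 and -0.28. Copb2, a COPI subunit, had 3.02, 0.958 and 1, high at E16 as was Copb1, with -0.62 against -1.59 for P3 minus E16 from its other probe set. Surf4, a cargo receptor, had 1, 2.36 and 0.986, where 3 other probe sets gave E18 minus E16 between -0.41 and 0.64 against 1.24. Uso1 (p115), a tether of vesicles to the Golgi, had 0.439, 1.01 and 1, and Sec24a, a paralogue of Sec24d, 0.582, 1 and 1.42, both lowest at E16. Klhl12, a ubiquitin ligase adaptor known for enlarging COPII coats to fit collagen, had 1.53, 1 and 0.746.

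Among the other regulators, Chac1, a glutathione-degrading enzyme known as a target of Atf4, had ratios of 1, 0.879 and 6.42 and was 6.42-fold higher at P3 than at E16, from 1 probe set. The P3 array was thus high for Chac1, whereas Atf4 itself was highest at E18. Creb3, a relative of Creb3l1, had 0.810, 1.93 and 1, and its 2 other probe sets also gave positive differences for E18 minus E16, of 0.26 and 0.66. Ppp1r15b, a subunit of the phosphatase that reverses phosphorylation of eIF2, had 1.94, 1 and 0.884. The sensors Ern1, Atf6 and Eif2ak3, named here after their values were seen, were within 1.5-fold in all 3 comparisons.

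**Figure D5:**
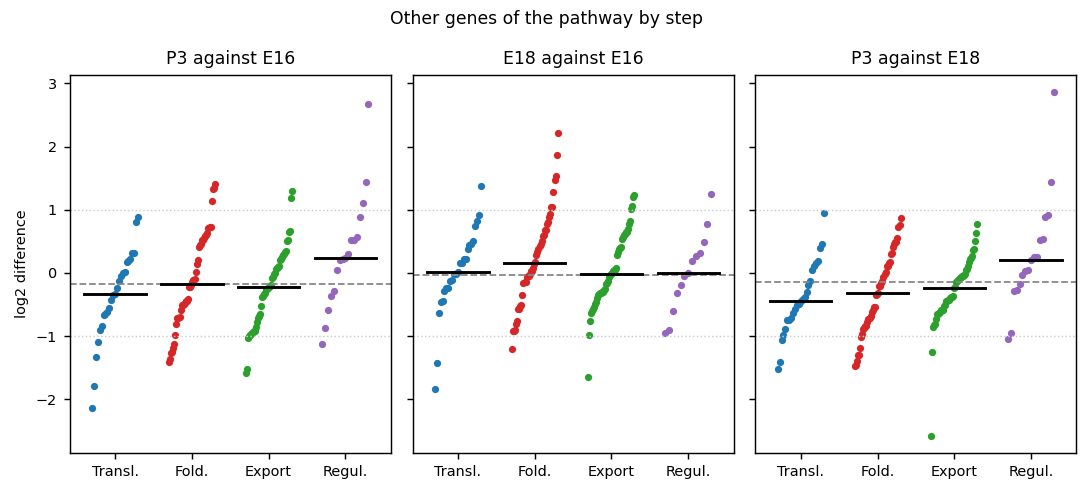
Log2 differences of the other genes of the pathway (points, 1 per gene) by step for P3 minus E16, E18 minus E16 and P3 minus E18; black bars are the medians of a step, dashed lines the median of all genes and dotted lines 2-fold. The point at the bottom of the P3 minus E18 panel is Preb at -2.58, and the one at its top is Chac1 at 2.87.

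More of the cargo of the pathway than of the machinery passed 2-fold at P3. Of 20 collagen and dentin matrix genes, 11 passed 2-fold upwards and none downwards at P3 against E16, beside 6.57% and 15.6% of all genes. Their median log2 difference was 1.34. Of the machinery 3 of 38 members were higher. For P3 minus E18 the cargo median was 1.15, with 11 higher, beside 4.07% of all genes, and 1 lower, beside 11.8%. For E18 minus E16 it was 0.17, with 5 higher, beside 8.1%, and 3 lower, beside 8.13%. Probe sets of a cargo gene could differ much in size. For P3 minus E16 Col1a1 had at least 6.34 on its representative probe set and 1.03 on the other. Dspp, the precursor of the main non-collagen proteins of dentin, had ratios of 0.01, 1 and 4.66 and was higher at P3 than at E16 by at least 238-fold. Col1a2, a chain of the main collagen of dentin, had 0.903, 1 and 5.70, so its P3 value alone was high. Its 2 other probe sets gave 1.18 and 1.64 for P3 minus E16 on the log2 scale, against 2.66. The summed recovered signal of the 20 cargo genes was 22890 at E16, 31430 at E18 and 81365 at P3. Such sums, here and for the markers below, are rough. They weight each gene by a recovered signal that can be too low, so the part of 1 gene in a sum is uncertain.

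Markers of other cell types also differed between these samples, and their part in the results was not tested. Odontoblast markers had summed signals of 2711, 10678 and 27943 at E16, E18 and P3 over 8 genes, of which Dspp alone gave 19517 at P3. They did not all run that way: Ibsp at P3 was 3.53-fold below its E16 value, and Dmp1 at P3 was 4.75-fold below its E18 value. Ameloblast markers, named for the enamel-secreting cells, which lie outside the papilla, summed to 1052, 4525 and 11495 over 7 genes, of which 5 passed 2-fold upwards at P3 against E16. Epithelial markers summed to 6301, 18313 and 3520, and all 7 measured passed 2-fold, upwards at E18 against E16 and downwards at P3 against E18. From E18 to P3 the ameloblast sum thus rose while the epithelial sum fell. Which cells of the samples expressed the ameloblast markers was not tested. Genes of the machinery highest at E18 share that stage with the epithelial markers. Those highest at E16 share it with erythroid markers, which summed to 1488, 262.7 and 152.9 over 3 genes, and with endothelial markers, which summed to 3110, 1463 and 1480 over 5 genes. Of the endothelial sum Kdr gave 2571 at E16, while Cdh5 and Emcn were highest at P3. Macrophage markers summed to 2158, 4416 and 7896 over 9 genes. Plasma cells, also rich in this machinery, were covered by 4 markers with summed signals of 1754, 1570 and 1222. Of these Jchain and Cd79a had signals of at most 90.4 and 57.7, Mzb1 had 117.0, 88.4 and 152.3, and Sdc1, which epithelial cells also express, had 1495, 1368 and 924.8. In such bulk samples, fewer cells of a type and less RNA per cell cannot be told apart.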

How the data were processed

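The deposited table holds 1 ratio per probe set and array. The authors' software was GCOS (no version stated) per the submitters' processing notes. How they scaled and centred the values, and any genome build, is not given in the sources used. In 40754 of 45101 probe sets (90.4%) the deposited ratio of the middle array is 1, and the other 4347 fit a division by 10, as worked out from the values. Signals had been planned for; because the file holds ratios, a signal was recovered per probe set as the smallest one that made all 3 arrays whole numbers of steps (tolerance 3e-07). It cannot be too high, can be too low, and above the range that holds 81.3% of centred probe sets may be chance.

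Symbols came from the platform annotation, in which 34958 of 35890 listed probe sets have 1 symbol. The 40 genes, the lists of other pathway genes, cargo and markers, the motifs and the thresholds of 2-fold and 1.5-fold were chosen with earlier results of these data known. All members were named. Of the other pathway genes up to 6 per step were named, by the largest difference measured on both arrays, and of cargo and markers the best known. Each list is described by counts and its median log2 difference beside all genes. The alternatives tried were 2 normalizations, 3 floors, 1 filter and 2 choices of probe set, and 1 added after seeing the files, centring on the median of all genes. A ratio of signals is written as fold. The script was tested on simulated data and used Python 3.11.15, numpy 2.4.6, pandas 2.3.3 and numba 0.67.0.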

Additional observations from a re-analysis of the deposited data

How the results depend on the processing

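No paired analysis was possible because each stage has 1 array. Moving the floor, leaving it out, requiring both arrays above it and scaling to a common median kept the counts of members past 2-fold within 1.5 times of those reported and the members' and folding medians within 0.1 on the log2 scale. Quantile normalization gave 5 members higher and 3 lower at P3 against E16 and 2 lower at P3 against E18. The median over a gene's probe sets gave 1 higher and 2 lower at P3 against E16, 1 lower at E18 against E16 and 3 lower at P3 against E18. Without probe sets of shared transcripts, 31 members were measured at P3, with 1 higher at E18 against E16 and 2 lower at P3 against E18. Centring on the median of all genes gave 3 lower at P3 against E16. The members' median less that of all genes, 0.15 for P3 minus E16 as reported, became 0.29 after quantile normalization and 0.035 with the median over probe sets. For E18 minus E16 it was 0.28, and 0.11 without shared probe sets; for P3 minus E18 it was -0.16, and 0.068 after quantile normalization. The folding median less that of all genes for P3 minus E18 was -0.79, and -0.46 after quantile normalization and -0.63 without shared probe sets, where 4 folding genes were measured. Less the export median it was -0.88, and -0.68 with the median over probe sets and -0.61 without shared ones. Of the members past 2-fold, Ssr4 and Atf4 changed sign with the choice of probe set: Ssr4 from 1.51 to -0.28 (median) and -0.87 (no shared) for P3 minus E16 and from 1.43 to -0.35 in both settings for E18 minus E16, and Atf4 from 1.70 to -0.14 (no shared) for E18 minus E16. The floor limits only Creb3l1 among the members.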

Other observations

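Within the pathway, smaller groups picked after their values were seen differed in their medians. Collagen chaperones and prolyl isomerases had medians of 0.59 for P3 minus E16, 0.69 for E18 minus E16 and -0.39 for P3 minus E18. The 10 subunits of the oligosaccharyltransferase, which attaches N-glycans, had -0.34, 0.11 and -0.47 in the same comparisons. Genes of the removal of misfolded proteins had -0.19, -0.05 and 0.11. COPI genes had -0.19, -0.34 and -0.15, and COPII genes -0.44, -0.15 and -0.29. Serpinh1 (Hsp47), the collagen-specific chaperone, had ratios of 1.01, 1 and 0.510 at E16, E18 and P3. On the representative probe sets it was 1.98-fold lower at P3 than at E16 while Col1a2 was 6.31-fold higher. On the log2 scale the other probe set of Serpinh1 gave -1.16 against -0.99. The 2 others of Col1a2 gave 1.18 and 1.64 against 2.66. Ppic, a prolyl isomerase, had 0.661, 1 and 1.65, and Ppib, the isomerase that works with Serpinh1 on collagen, 0.750, 1.54 and 1.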
